A study of Mus musculus with 56 samples.

Results

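The adrenal glands of 8 male mice were compared: 4 were castrated at week 4 and 4 had a sham operation at week 4, and all glands were taken at 9 weeks of age. All 8 mice were conditional knockouts (cKO), labelled strain C57BL/6J. They carried both floxed copies of Znrf3 (Znrf3 Fx/Fx) and the SF1-Cre+ transgene, so by genotype the sham group is Znrf3-deleted in its steroid-producing cells as well. SF1-Cre is driven by the gene of steroidogenic factor 1 and recombines in cells of the adrenal cortex and gonads, not in adrenal cells alone. Reporter alleles were mixed. Of the castrated mice 1 carried R26eYFP/WT, 1 no reporter and 2 R26mTmG/mTmG. Of the sham mice 2 carried R26eYFP/WT, 1 R26mTmG/WT and 1 no reporter. These 8 libraries are chosen by their surgery labels from the 56 libraries of the series. The others come from animals of both sexes, cKO or SF1-Cre negative controls, at several ages. Of these, the males without surgery that were SF1-Cre+; Znrf3 Fx/Fx at 4 and at 9 weeks, and SF1-Cre negative at 9 weeks (4 libraries each, strain C57BL/6J, no reporter labelled), are used below as cKO and control males. The labels give all sham mice the same replicate number, so numbers 1 to 4 are names only. The series' text states 4 independent mice per group for the age series; nothing further is stated for the surgery groups, so a p-value measures the spread between these libraries.

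Znrf3 is a membrane ubiquitin ligase that clears Wnt receptors from the cell surface and so restrains Wnt signalling, which keeps the outer adrenal cortex supplied with new cells. The cortex makes aldosterone in its outer zona glomerulosa and glucocorticoid in the zona fasciculata beneath it. In mice a further layer, the X-zone, lies innermost, next to the medulla. In males it disappears at puberty, and castration is classically known to bring back a layer of this kind. Testicular androgens change gene transcription and reach cortex cells and immune cells alike. Castration removes them, and it also removes the feedback of the testis on pituitary gonadotropins. The comparison therefore asks how the glands of cKO males differ once the testes have been absent for the weeks between surgery and collection.

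Library totals ran from 25145519 to 42411447 counts. The gland was identified by its own enzymes: Hsd3b1, the adrenal 3-beta-hydroxysteroid dehydrogenase, lay between 9097 and 25059.7 CPM (counts scaled to a common library size) in the 8 libraries. Of 11 markers of liver, kidney and pancreas only 3 had enough counts to test, and 0 passed. Levels throughout are CPM scaled by TMM factors, listed as castrated replicates 1 to 4 and then sham replicates 1 to 4. Sham replicate 1 stood apart. Mitochondrial genes held 9.87% of its counts against 2.41% to 3.11% in the other sham libraries and 3.55% to 4.44% in castrated ones. A single identifier without a gene symbol held 6.01% of its counts against 0.106% to 0.349% in the other sham libraries and up to 0.968% in castrated ones. Counts over all genes are therefore also given without it. The first principal component of log2 levels held 66.6% of the variance and separated castrated from sham libraries without overlap. Library correlations were 0.979 to 0.988 among castrated, 0.962 to 0.989 among sham and 0.912 to 0.946 between groups (log2 CPM over genes, which are not independent).

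Znrf3 itself was examined first (chromosome 11, 5276324 to 5444847, GRCm38). Its gene-level count was at 56.1, 64.1, 64.9 and 58.9 CPM in castrated and 39.9, 57.5, 57.1 and 48.9 CPM in sham libraries. The groups overlapped, and the difference did not pass the test (log2 fold change 0.26 ± 0.13 (SE), adjusted p = 0.126 by edgeR's quasi-likelihood test, as are all adjusted p-values below). A count summed over the gene does not show which exons were lost, so it does not check the deletion, which rests on the genotype label. In males without surgery at 9 weeks the gene-level count was higher in cKO than in control glands (0.53 ± 0.13, adjusted p = 0.00538). Rnf43, its close relative, also did not pass (5.42, 6.19, 4.76 and 7.59 CPM castrated, 4.41, 9.18, 11.1 and 9.10 CPM sham, adjusted p = 0.155).

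Castration changed a large part of the transcriptome. Of 16961 genes tested, 7402 (43.6%) had an adjusted p under 0.05, called here, with 3363 (19.8%) higher and 4039 (23.8%) lower in castrated glands. Called genes with at least a 2-fold change were mostly lower: 869 (5.12%) were higher and 2564 (15.1%) lower. Without sham replicate 1, 8136 genes were called. Library numbers in the sample titles were 13 to 16 in castrated and 10, 12, 29 and 33 in sham libraries, so they are not balanced over the groups. With numbers up to 16 only, 5812 genes were called, 40.2% of them higher. The 4 castrated libraries lay wholly above or below the 4 sham libraries for 7311 genes (43.1%), 3582 above and 3729 below. The median log2 fold change over all genes was -0.01, the value beside which the medians of gene lists are to be read. Counts of list members called higher or lower are to be read beside the 19.8% and 23.8% of all genes.

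**Figure D1:**
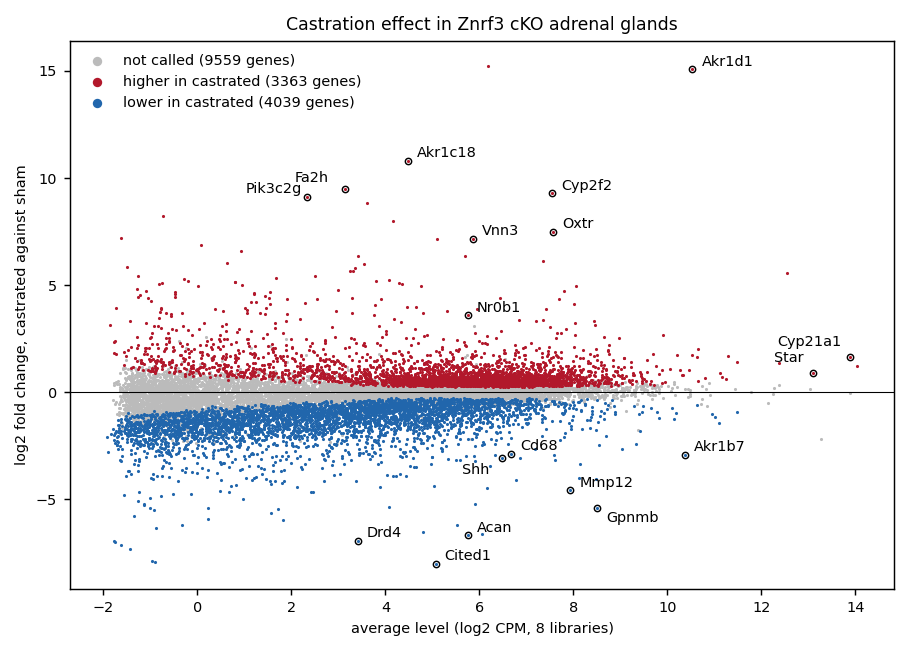
Each point is 1 of the 16961 genes tested, by its average level over the 8 libraries (x axis, log2 CPM) and its log2 fold change in castrated against sham glands (y axis). Red and blue mark the 3363 higher and 4039 lower genes with an adjusted p under 0.05, grey the others, and circles the labelled genes; Akr1d1 lies near the top with a log2 fold change of 15.07.

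The largest rises were in genes that sham glands barely expressed. Akr1d1, the steroid 5-beta-reductase that the liver uses in bile acid synthesis and steroid clearance (chromosome 6, 37530173 to 37568815), stood at 3866, 3361, 2212 and 2416 CPM in castrated libraries and at 0, 0, 0.0543 and 0.221 CPM in sham libraries. The sham libraries held 12 of its reads in all (log2 fold change 15.07 ± 0.57, adjusted p = 1.33e-07). At so few reads the fitted fold depends on the prior count, and it was 19.49 with library numbers up to 16 only. Gm7463, a processed pseudogene that lies inside Akr1d1 on the same strand, rose with it from 0 sham counts to 17343, at least 6554-fold against a floor of 3 counts over the group; reads of the 2 cannot be told apart here. Cyp2f2, a cytochrome P450 best known from airway club cells, was at 856, 303, 146 and 183 CPM against 0.273, 0.566, 0.625 and 0.795 CPM (log2 fold change 9.29 ± 0.72). Hamp, the iron hormone hepcidin, was at 47.2, 22.2, 11.7 and 16.2 against 0.0391, 0, 0.109 and 0.0442 CPM (8.85 ± 0.67). Fa2h, which hydroxylates the fatty acids of sphingolipids, had 3 counts in all sham libraries together and 2074 in castrated ones, a ratio of 784 (95% counting interval 268 to 3804). For Akr1d1, Cyp2f2, Hamp and Fa2h the 2 castrated libraries with the mTmG reporter, replicates 3 and 4, held the lowest levels. With the reporter as a covariate, log2 fold changes were 15.32, 9.48 and 9.21 for the first 3, and all 4 were still called. Here and below this covariate takes all mTmG carriers as 1 level. R26mTmG/mTmG occurs only in castrated mice and R26mTmG/WT only in a sham mouse, so the covariate cannot adjust for that difference.

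Membrane receptors and secreted proteins were also among them. Oxtr, the oxytocin receptor, rose from 1.76, 0.963, 1.47 and 3.97 CPM in sham to 418, 457, 353 and 279 CPM in castrated libraries (log2 fold change 7.50 ± 0.42, adjusted p = 1.06e-06). Nxph1, a secreted ligand of neurexins, rose by 7.999 ± 0.49. Vnn3, of the vanin family of pantetheinases, varied little between castrated libraries, with 132, 119.6, 92.03 and 117 against 1.02, 0.538, 0.571 and 1.06 CPM (7.17 ± 0.24). Xrra1 (7.15 ± 0.40) and the glycosyltransferase gene Mgat4c (6.36 ± 0.37, 77.5, 112, 149 and 72.3 against 2.26, 0.991, 1.11 and 0.795 CPM) complete the 12 largest together with Akr1c18 and Pik3c2g below. Adh1, the alcohol dehydrogenase that also oxidises retinol, was picked out after its values were seen, as was Akr1cl below. It stood at 11362, 10540.4, 11463 and 13489 CPM in castrated and 272, 222, 145 and 360.5 CPM in sham libraries, the groups far apart (log2 fold change 5.55 ± 0.31, adjusted p = 1.03e-06). Akr1cl, a further aldo-keto reductase gene, rose from 1069.6, 1125, 1189 and 1312 to 4372, 3128, 3671 and 4078 CPM (1.70 ± 0.16).

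The largest falls led to near absence. Cited1, a transcriptional coregulator (chromosome X, 102247381 to 102252181), was at 44.1, 66.8, 75.04 and 80.8 CPM in sham libraries and at 0.406, 0.219, 0.165 and 0.261 CPM in castrated ones (log2 fold change -8.01 ± 0.29, adjusted p = 1.19e-07). Acan, the cartilage proteoglycan aggrecan, fell from 75.95, 136, 113 and 101 to 0.959, 1.4998, 0.688 and 1.01 CPM (-6.68 ± 0.27). Susd3, which encodes a sushi-domain membrane protein, fell from 57.7, 147, 147 and 172 to 1.59, 1.25, 0.798 and 1.69 CPM (-6.63 ± 0.39). In each of these the lowest sham library was still more than 10 times above the highest castrated one. Drd4, a dopamine receptor (-6.94 ± 0.35), Tubb3, the neuronal beta-tubulin (-5.34 ± 0.18), Aldh1a7 (-6.21 ± 0.50), Rarres1 (-5.98 ± 0.35), Trim29 (-5.64 ± 0.36) and Gm5148 (-5.46 ± 0.52) fell as well. The last 3 of the 12 largest falls are genes of macrophages, Cd5l, Gpnmb and Atp6v0d2, and are described with them. Among abundant genes Apoe, the apolipoprotein of macrophages and steroid cells, fell from 3206 ± 765 to 1194 ± 249.6 CPM (-1.42 ± 0.22), Ly6d, a small surface protein, fell from 907 ± 65.7 to 142 ± 59.98 CPM (-2.68 ± 0.25), and Meg3, an imprinted noncoding RNA, from 1079 ± 486 to 201 ± 105 CPM (-2.42 ± 0.40; means ± SD, n = 4 per group, all 3 picked out after their values were seen).

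**Figure D2:**
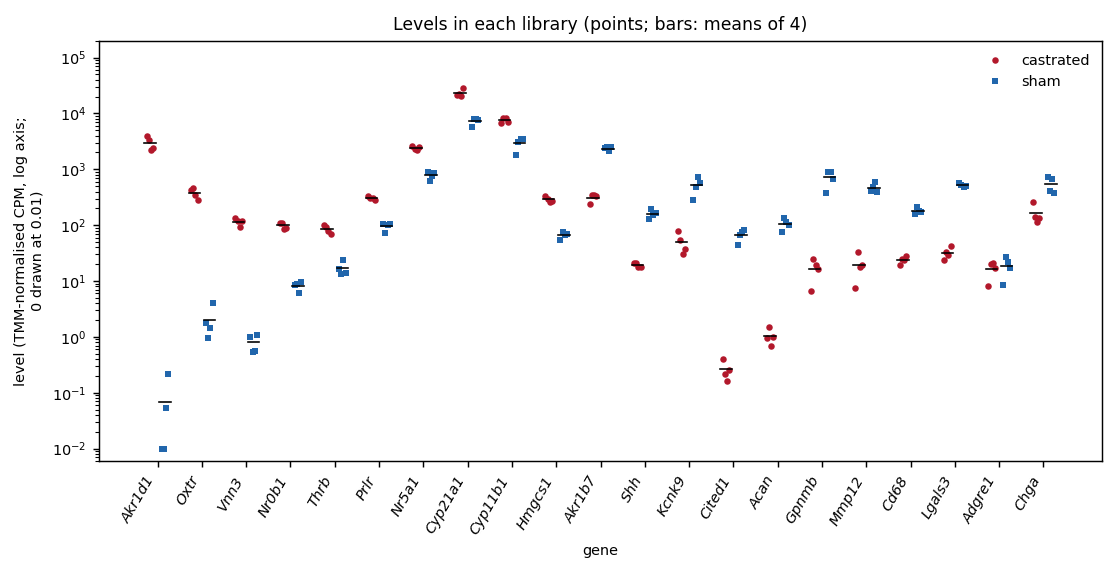
Each point is the TMM-normalised CPM of a gene in 1 library (log axis, 0 drawn at 0.01), with castrated libraries as red circles, sham libraries as blue squares and bars at the mean of 4. Akr1d1, Oxtr and Vnn3 lie on the left with castrated libraries far above sham, Cited1 and Acan are near 1 CPM or lower in castrated libraries, and Adgre1 is the gene shown whose groups overlap.

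Promoters of these genes are given where they hold a motif that was searched, since androgens act on genes through androgen response elements and SF1 (Nr5a1) is the main activator of adrenal steroid genes. The sequences are RefSeq's, GRCm38.p6, from 250 bases before to 50 after the start, 5′ to 3′ on the gene's strand. Of the 24 genes with the largest rises and falls, 20 had an entry and 5 held a match; Akr1b7, discussed below, is added. Capitals mark the androgen response half-site AGAACA (or TGTTCT, its other strand) or the SF1 site CAAGGTCA.
Cyp2f2, chr7:27119705-27120004, plus strand: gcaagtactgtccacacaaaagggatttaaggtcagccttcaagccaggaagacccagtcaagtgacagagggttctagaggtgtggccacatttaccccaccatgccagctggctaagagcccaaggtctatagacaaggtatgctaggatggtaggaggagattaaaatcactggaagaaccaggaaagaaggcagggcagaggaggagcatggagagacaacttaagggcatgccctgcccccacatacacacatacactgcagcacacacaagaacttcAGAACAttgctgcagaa
Hamp, chr7:30943980-30944279, minus strand: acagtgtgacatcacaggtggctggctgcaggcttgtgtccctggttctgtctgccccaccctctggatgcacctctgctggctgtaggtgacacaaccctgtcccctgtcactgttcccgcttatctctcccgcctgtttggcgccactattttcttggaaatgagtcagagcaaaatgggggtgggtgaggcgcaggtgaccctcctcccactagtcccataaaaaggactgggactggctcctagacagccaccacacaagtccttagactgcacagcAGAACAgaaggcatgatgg
Vnn3, chr10:23851212-23851511, plus strand: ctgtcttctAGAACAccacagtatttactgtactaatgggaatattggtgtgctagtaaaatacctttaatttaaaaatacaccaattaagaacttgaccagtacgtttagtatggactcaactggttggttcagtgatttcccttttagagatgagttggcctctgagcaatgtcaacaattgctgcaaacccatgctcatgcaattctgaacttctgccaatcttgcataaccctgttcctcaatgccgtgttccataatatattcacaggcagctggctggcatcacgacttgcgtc
Susd3, chr13:49248245-49248544, minus strand: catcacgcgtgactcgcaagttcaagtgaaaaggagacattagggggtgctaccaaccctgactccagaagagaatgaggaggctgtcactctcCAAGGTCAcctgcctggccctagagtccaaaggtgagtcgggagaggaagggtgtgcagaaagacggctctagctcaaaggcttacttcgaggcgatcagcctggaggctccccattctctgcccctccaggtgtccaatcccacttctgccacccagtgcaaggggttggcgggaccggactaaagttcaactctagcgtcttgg
Gpnmb, chr6:49036268-49036567, plus strand: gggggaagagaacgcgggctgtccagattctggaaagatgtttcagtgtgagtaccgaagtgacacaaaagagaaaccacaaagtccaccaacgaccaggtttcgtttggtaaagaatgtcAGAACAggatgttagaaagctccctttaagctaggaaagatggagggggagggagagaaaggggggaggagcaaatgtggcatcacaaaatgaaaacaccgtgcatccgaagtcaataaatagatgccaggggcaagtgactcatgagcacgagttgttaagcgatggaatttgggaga
Akr1b7, chr6:34412112-34412411, plus strand: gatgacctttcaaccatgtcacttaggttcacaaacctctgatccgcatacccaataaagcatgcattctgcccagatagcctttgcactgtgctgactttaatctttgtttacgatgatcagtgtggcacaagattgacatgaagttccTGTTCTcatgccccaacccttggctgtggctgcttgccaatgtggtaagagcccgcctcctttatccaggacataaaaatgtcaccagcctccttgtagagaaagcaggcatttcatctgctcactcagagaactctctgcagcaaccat
The half-site stands at bases 284 to 289 of the Cyp2f2 window, 282 to 287 in Hamp, 10 to 15 in Vnn3, 122 to 127 in Gpnmb and 151 to 156 in Akr1b7, where it is on the other strand. The SF1 site stands at bases 95 to 102 of Susd3. The half-site is short and common. It was present in 12.5% of the 11876 promoters of all genes tested that had an entry (1 promoter per gene), in 13.8% of genes higher by at least 2-fold and in 14.5% of those lower by at least 2-fold. The SF1 site was in 1.10%, 1.63% and 1.72% of the same sets. The exact full form of the androgen response element, AGAACA, any 3 bases, then TGTTCT, was in 0 of 11876. An exact match of that length is rare in windows this short, so the 0 does not show that these promoters lack such elements. Such a match is a description of the letters in a window, not a site of binding.

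Genes of the X-zone rose. All 3 listed markers were higher in castrated glands. Akr1c18, the 20-alpha-hydroxysteroid dehydrogenase that inactivates progesterone and marks the X-zone (chromosome 13, 4132615 to 4150654), was at 109, 52.4, 4.54 and 13.03 CPM in castrated libraries. Sham libraries held 3 counts of it in all against 5202, a ratio of 1966 (95% counting interval 672 to 9536; adjusted p = 0.00018). Pik3c2g, a class II phosphoinositide 3-kinase of the same zone, was at 3.54, 25.8, 8.72 and 1.499 CPM against 2 counts in all sham libraries (ratio 728, 201 to 6021). Thrb, the thyroid hormone receptor through which thyroid hormone changes the X-zone, was expressed in both groups, at 102, 92.9, 77.2 and 68.96 and 16.7, 13.5, 23.7 and 13.8 CPM (2.33 ± 0.20). Castrated libraries differed widely for the first 2 genes, by over 15 times between replicates, and in different order. For Akr1c18 the 2 mTmG libraries were lowest. With the reporter as a covariate the log2 fold change of Akr1c18 was 11.42 (adjusted p = 2.31e-06) against 10.82 without, fitted values that depend on the prior count at so few sham counts. Cdh13, the adhesion protein T-cadherin, was likewise highest in castrated replicates 1 and 2 (67.8, 41.2, 19.5 and 17.8 CPM against 2.15, 4.67, 3.64 and 4.37 CPM, 3.29 ± 0.44). Counts of paralogs in the Akr1c family may be shared between members.

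Receptors of hormones moved in both directions. Of 9 listed receptors that were tested, 5 were higher and 2 lower, where 19.8% and 23.8% of all genes were. Prlr, the prolactin receptor, rose from 106, 72.98, 101 and 105 to 334, 300.3, 309.9 and 282 CPM (1.67 ± 0.14). Mc2r, the ACTH receptor, rose by 0.70 ± 0.15 and Ghr, the growth hormone receptor, by 0.44 ± 0.11. Nr3c2, the mineralocorticoid receptor, rose as well (0.76 ± 0.19). For Prlr the castrated libraries held at least 2 times the highest sham level. Esr1, the oestrogen receptor alpha, fell from 8.08, 15.97, 13.96 and 11.97 to 4.13, 4.44, 5.03 and 3.91 CPM (-1.51 ± 0.21), and Nr3c1, the glucocorticoid receptor, is the other fall (-0.51 ± 0.17), a call lost under 6 of 15 alternatives. Lhcgr, the luteinising hormone receptor, stayed below the count minimum.

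Enzymes that reduce or conjugate androgens likewise split: 4 of 10 rose and 3 fell, where 19.8% and 23.8% of all genes did. Besides Akr1d1, Srd5a1, a steroid 5-alpha-reductase, rose from 31.98, 44.7, 36.8 and 46.6 to 92.1, 72.3, 123 and 109.9 CPM (1.31 ± 0.18), and Akr1c13, an aldo-keto reductase, rose by 1.52 ± 0.29; Srd5a3 is the fourth rise (0.40 ± 0.12), a call lost under 6 of 15 alternatives. Srd5a2, a second 5-alpha-reductase, did not pass (687, 1236, 2009 and 1270.2 CPM castrated, 768, 893, 1029 and 1080.1 CPM sham, adjusted p = 0.189). Cyp7b1, a steroid 7-alpha-hydroxylase, fell (-1.73 ± 0.29), as did Akr1c14, a 3-alpha-hydroxysteroid dehydrogenase (-1.44 ± 0.42; not called without castrated replicate 3 or 4), and the sulfotransferase gene Sult2b1 (-0.84 ± 0.21). Genes known as androgen targets in prostate and other organs gave 5 falls and 1 rise among 12, beside 23.8% and 19.8% of all genes. Slc45a3 (prostein) fell evenly, from 34.8, 46.6, 52.2 and 52.8 to 19.003, 14.4, 15.05 and 12.2 CPM (-1.62 ± 0.17). Fkbp5 and Zbtb16, which glucocorticoids also induce, fell too. Fkbp5 was at 50.6, 16.2, 22.9 and 19.2 CPM against 58.3, 149, 158 and 129.99 CPM (-2.19 ± 0.39) and Zbtb16 at 3.91, 1.06, 2.45 and 2.02 against 4.06, 15.8, 24.1 and 16.3 CPM (-2.68 ± 0.51). In both genes sham replicate 1 held the lowest sham level, and without it the log2 fold changes were -2.42 and -2.99. Odc1, the first enzyme of polyamine synthesis, is the 1 rise (1.24 ± 0.24).

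Several glucocorticoid synthesis genes rose. Of 15 listed genes of synthesis and its control 7 rose, 2 fell and 6 did not pass (median log2 fold change 0.42). Over all genes 19.8% rose and 23.8% fell. Cyp21a1, the 21-hydroxylase, was at 21208, 22056, 20231 and 28011 CPM in castrated and 5665, 7952, 8037 and 7627 CPM in sham libraries (1.64 ± 0.20, adjusted p = 0.000137). Cyp11b1, which makes corticosterone, rose from 1792, 3062, 3503 and 3552 to 6691, 8274, 8435 and 7057 CPM (1.35 ± 0.23). Hsd3b1 rose by 1.201 ± 0.18 and Star, which carries cholesterol into mitochondria, by 0.90 ± 0.20. No castrated library of these 4 genes fell within the sham range. Cyp11a1, the side-chain cleavage enzyme that opens the pathway, did not pass (2934, 3521, 4551 and 4037 CPM against 3549.8, 5372, 5839.8 and 6372 CPM, -0.49 ± 0.22, adjusted p = 0.0907), and with DESeq2 or without sham replicate 1 it was called as lower. Nr5a1 (SF1), the nuclear receptor that drives these genes, rose from 878, 618, 756 and 857 to 2582, 2314, 2244 and 2495 CPM (1.63 ± 0.15), and Nr0b1 (DAX1), the corepressor it induces, from 8.40, 8.81, 6.17 and 9.43 to 109, 111, 86.7 and 90.3 CPM (3.596 ± 0.16, adjusted p = 3.08e-07). The 2 falls were Scarb1, the receptor that takes up high-density lipoprotein cholesterol (-1.27 ± 0.17), and Akr1b7. Akr1b7, first described as an androgen-regulated protein of the vas deferens and abundant in the zona fasciculata, fell from 2363, 2492, 2084 and 2479.5 to 236, 344, 340.2 and 331 CPM (-2.91 ± 0.16, adjusted p = 1.06e-06).

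Cholesterol synthesis rose almost as a whole. Of 23 listed genes 20 were higher, 1 (Scarb1) lower and 2 did not pass, where 19.8% of all genes were higher and 23.8% lower. The median log2 fold change was 1.201, and without sham replicate 1 the count of higher genes was 20. Hmgcs1, at the entry of the pathway, went from 54.9, 75.8, 66.8 and 70.1 to 336, 298, 255 and 269 CPM (2.11 ± 0.14, adjusted p = 2.41e-06). Fdps (2.16 ± 0.15), Sqle (1.77 ± 0.17) and Msmo1 (1.56 ± 0.12), which act further on, rose as well. Gramd1b, a sterol carrier that moves cholesterol from the plasma membrane inward, rose from 386, 194, 245 and 219 to 1853, 1762, 1535 and 1511 CPM (2.67 ± 0.22; picked out after its values were seen).

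Outer-cortex genes were lower. Of 11 zona glomerulosa genes 9 fell and 1, the potassium channel gene Kcnk3, rose (median -1.23), against 23.8% and 19.8% of all genes. Shh, the signal that glomerulosa cells send to the capsule, fell from 129, 193, 149.7 and 165 to 20.7, 20.7, 17.6 and 17.8 CPM (-3.05 ± 0.14, adjusted p = 4.35e-07). Kcnk9, a potassium channel that holds the membrane potential of these cells, fell from 284, 482, 729 and 569 to 79.8, 54.7, 30.5 and 37.8 CPM (-3.35 ± 0.35). Hsd3b6, the glomerulosa form of 3-beta-hydroxysteroid dehydrogenase, fell (-2.96 ± 0.28), as did Cacna1h, a T-type calcium channel (-1.29 ± 0.17), and the angiotensin receptor gene Agtr1a (-0.997 ± 0.11). Cyp11b2, the aldosterone synthase, was at 65.1, 73.3, 45.8 and 51.4 CPM in castrated libraries and 32.02, 148, 194 and 170.5 CPM in sham libraries. Its call rests on few libraries (adjusted p = 0.0392): sham replicate 1 lay below all castrated ones, and without it the log2 fold change went from -1.21 to -1.54 (adjusted p = 5.11e-05), while leaving out any of the other 7 libraries ended the call.

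Wnt and Hedgehog genes fell with them. Of 17 Wnt targets and regulators 14 were lower and 1 higher (median -1.10), against 23.8% and 19.8% of all genes. Without sham replicate 1, 15 were lower. Axin2, the general feedback target of beta-catenin, was at 50.8, 69.5, 72.9 and 52.5 CPM against 128, 112, 113 and 99.6 CPM (-0.88 ± 0.14, adjusted p = 0.000714), and Lef1, a transcription factor of the pathway, at 5.39, 4.47, 3.16 and 6.19 against 15.4, 14.7, 12.5 and 11.4 CPM (-1.495 ± 0.21). Notum, a secreted inhibitor, fell (-2.10 ± 0.17), and so did Nkd1, an intracellular one (-1.29 ± 0.11), and Apcdd1, a membrane inhibitor (-1.10 ± 0.15). Rspo3, the capsule ligand that Znrf3 and its relative answer to, fell from 44.2, 45.5, 31.7 and 42.7 to 14.6, 8.94, 6.58 and 11.3 CPM (-1.99 ± 0.23). The 1 rise was Tnfrsf19, a receptor of the tumour necrosis factor family (1.402 ± 0.14). Among 10 Hedgehog genes 6 fell, including Gli1, the target that reads out the pathway (4.24, 2.81, 1.93 and 2.57 CPM against 22.8, 14.9, 11.3 and 12.1 CPM, -2.41 ± 0.29), and Hhip (-1.41 ± 0.21), a decoy receptor. Scube1, of a family that helps release the ligand, rose instead, from 10.7, 7.42, 6.79 and 6.58 to 142, 119.8, 113 and 89.2 CPM (3.89 ± 0.20). All 8 mice are labelled cKO, so these falls are between cKO glands.

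Proliferation genes were somewhat higher. Of 25 cell cycle genes 15 rose, 0 fell and 10 did not pass (median 0.70), where 19.8% of all genes rose and 23.8% fell. Ccna2, cyclin A2, was at 6.46, 8.78, 11.01 and 6.12 CPM against 4.02, 3.43, 3.31 and 3.003 CPM (1.24 ± 0.22, adjusted p = 0.00124). Ccnb1 (1.66 ± 0.33), Ccnb2 (1.17 ± 0.22), Cdc20 (1.05 ± 0.21) and Foxm1 (0.98 ± 0.20), all of mitosis, rose by similar amounts. Plk1, Birc5 and Ube2c, also of mitosis, did not pass. Among replication genes Mcm2, Mcm3, Mcm4, Mcm5, Mcm6, Tyms and Tk1 did not pass. Mcm7 (0.45 ± 0.13), Pcna (0.49 ± 0.15) and Rrm2 (1.21 ± 0.29) rose. Mki67, the usual marker of dividing cells, was near the threshold (15.9, 18.2, 21.7 and 12.1 CPM against 15.7, 10.2, 8.39 and 7.57 CPM, 0.70 ± 0.25, adjusted p = 0.0411), and its call was lost under 9 of 15 alternatives. The count was 9 without castrated replicate 3, the library with the highest Mki67, and 6 when only library numbers up to 16 were used, which leaves 2 sham libraries. Of 19 CDK inhibitor and p53 target genes 4 rose and 5 fell, shares close to the 19.8% and 23.8% of all genes. Cdkn2a, which encodes p16 and p19Arf, rose from 2.73, 1.93, 2.01 and 1.85 to 3.54, 4.22, 6.60 and 5.86 CPM (1.25 ± 0.25), Cdkn1c (p57) by 0.78 ± 0.17 and Cdkn2c (p18) by 0.69 ± 0.12. Cdkn1a (p21) did not pass (0.06 ± 0.15, adjusted p = 0.747).

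Macrophage genes fell. Of 24 tested 21 were lower and 0 higher, against 23.8% and 19.8% of all genes. The list had a median log2 fold change of -1.49, and 21 of its members were lower without sham replicate 1. Their summed level was 590.3 to 929 CPM in castrated and 2429.5 to 3892 CPM in sham libraries. Cd68, a lysosomal glycoprotein of macrophages, was at 19.4, 24.8, 24.1 and 28.3 CPM in castrated and 161, 207, 181 and 169 CPM in sham libraries (-2.89 ± 0.14, adjusted p = 5.07e-07). Trem2, a lipid-sensing receptor, was at 7.08, 8.66, 9.74 and 12.9 against 52.9, 76.9, 66.9 and 57.95 CPM (-2.73 ± 0.19). Lgals3, galectin-3, fell from 573, 530.1, 483 and 500.04 to 24.2, 33.4, 29.7 and 41.9 CPM (-4.01 ± 0.18), as did Tyrobp, the adaptor of Trem2 (-2.18 ± 0.17). For Cd68, Trem2 and Lgals3 every sham library lay at least 4 times above every castrated one. The secreted macrophage protein gene Cd5l varied widely, at 8.94, 111, 41.6 and 57.7 CPM in sham libraries against 1.01 CPM or less in castrated ones (-6.52 ± 0.78). General markers of tissue macrophages moved by unlike amounts. Mertk (-1.95 ± 0.15), Lyz2 (-2.05 ± 0.27) and C1qb (-1.001 ± 0.21) were called lower. The 4 smallest changes of the list follow. Adgre1 (F4/80) was at 8.30, 20.2, 21.2 and 17.005 CPM against 8.47, 27.4, 21.7 and 17.3 CPM (-0.17 ± 0.35, adjusted p = 0.721), and Mrc1 (CD206) and Cx3cr1, the fractalkine receptor, also did not pass (-0.26 ± 0.13 and 0.32 ± 0.19), though Mrc1 was called lower with the reporter as a covariate and under a filter of 5 CPM. Csf1r, the growth factor receptor of the lineage, fell (-0.49 ± 0.17, adjusted p = 0.0414), a call lost under 9 of 15 alternatives, among them leaving out any library but sham replicate 1. These 4, and Lyz2 and C1qb, were named after their values were seen. In whole glands, fewer cells of a type and less RNA per cell cannot be told apart.

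Genes of lipid-laden and multinucleated macrophages had the lowest median of the 32 lists; 13 of 15 were lower (median -2.64). Gpnmb, a glycoprotein of lipid-loaded phagocytes, went from 379, 893, 912 and 668 to 6.57, 24.8, 19.3 and 16.2 CPM (-5.41 ± 0.44, adjusted p = 9.12e-06). Mmp12, macrophage elastase, went from 401, 489, 589.5 and 399 to 7.49, 32.7, 18.05 and 19.6 CPM (-4.59 ± 0.39). Atp6v0d2, a proton pump subunit of osteoclasts and macrophages that also takes part in cell fusion, went from 118, 129, 124 and 94.9 to 2.62, 4.06, 3.33 and 2.51 CPM (-5.21 ± 0.19). Fabp5, a fatty acid carrier (-4.10 ± 0.15), Spp1, osteopontin (-2.98 ± 0.17), Cd9 (-1.88 ± 0.11) and the integrin gene Itgax (-2.64 ± 0.14) fell too. The 2 that did not pass were Cd36 and Plin2, which fat-storing cells of other types also express. In the castrated group replicate 1 had the lowest level of Gpnmb, Mmp12 and Cd68.

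Lysosomal genes were divided, with 9 of 18 lower and 2 higher, against 23.8% and 19.8% of all genes. Without sham replicate 1, 13 of these genes were lower. Their summed level was 6785 to 7698 CPM in castrated libraries, 6564 in sham replicate 1 and 10859 to 12201 in the other sham libraries. Ctss, the cathepsin of antigen-presenting cells, fell (-2.46 ± 0.20), as did Ctsl (-1.70 ± 0.21) and the phagocytic receptor gene Axl (-1.07 ± 0.10). Lipa, the acid lipase that frees stored cholesterol, rose from 110.4, 214, 229 and 208 to 447, 605, 591 and 500.1 CPM (1.49 ± 0.22). Of 18 secreted factors linked to senescence 13 fell and 0 rose; the list shares Mmp12 and Spp1 with the macrophage list above. Il1a, a cytokine precursor, was at 0.221, 0.187, 0.413 and 0.0977 CPM against 3.87, 5.21, 3.396 and 3.95 CPM (-4.11 ± 0.37), Gdf15, a stress hormone, at 0.738, 2.06, 1.51 and 1.499 against 9.37, 11.6, 10.6 and 12.3 CPM (-2.91 ± 0.27), and Timp1, a protease inhibitor, at 8.56, 8.69, 10.3 and 10.8 against 45.03, 46.4, 37.03 and 44.7 CPM (-2.17 ± 0.13). Antigen presentation genes were lower for 9 of 13 members, including Ciita, the activator of MHC class II genes (-1.13 ± 0.26), and Cd209a (-2.47 ± 0.27). T and NK cell genes gave 4 falls of 16, a share close to the 23.8% of all genes. With the reporter as a covariate 6 fell, Cd3d among them, and with library numbers up to 16 only 7 fell, Cd3g and Trac among them. In the main fit the falls were as follows. Il7r was the deepest of the 4, from 25.7, 30.1, 31.6 and 25.7 to 0.959, 1.66, 1.32 and 1.34 CPM (-4.41 ± 0.18), followed by Cd4 (-1.86 ± 0.30), both of which myeloid cells can express, Klrd1 (-1.59 ± 0.35) and Lck (-0.87 ± 0.22); the T cell receptor genes Cd3e, Cd3d, Cd3g and Trac did not pass, all at 3.44 CPM or less. Of 10 B and plasma cell genes 2 were lower and 1 higher, no more than the shares over all genes.

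**Figure D3:**
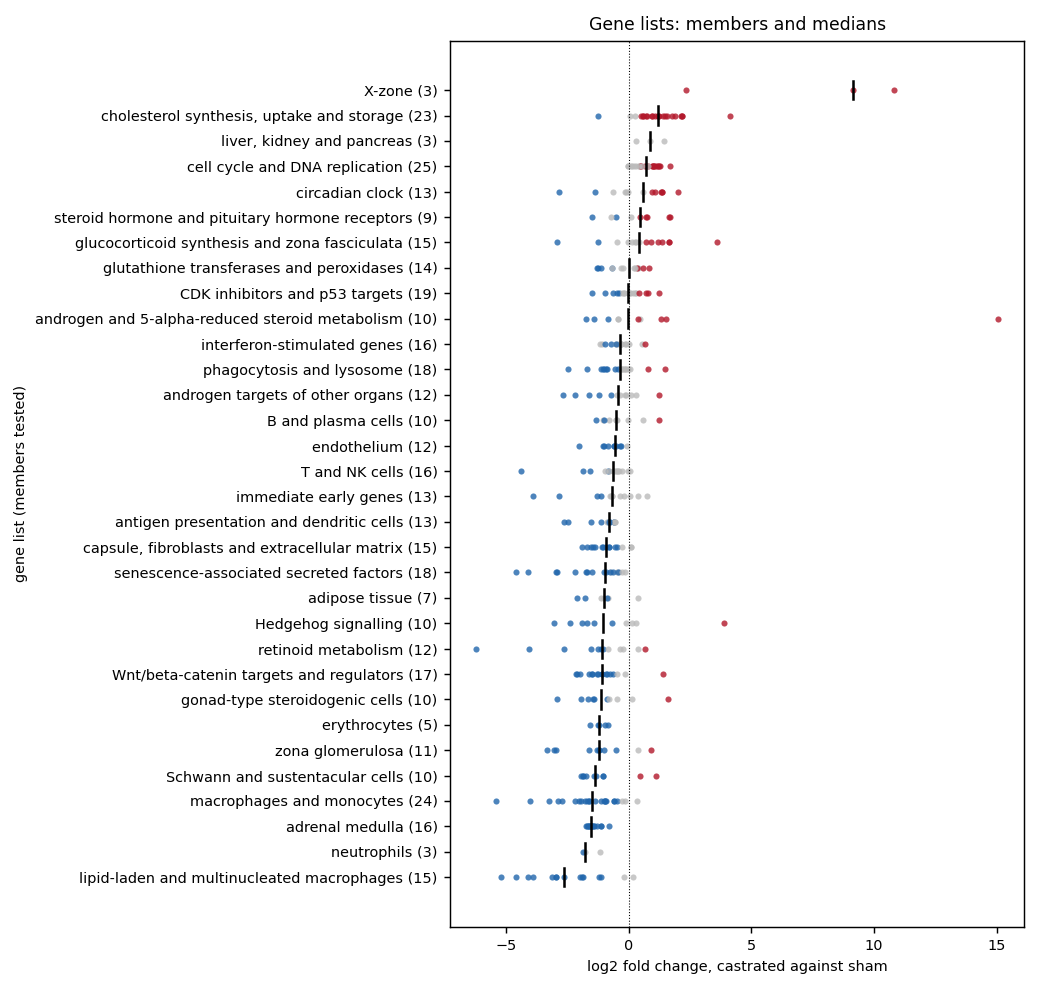
Each row is a gene list with the number of members tested, each point a member's log2 fold change in castrated against sham glands (red higher and blue lower at an adjusted p under 0.05, grey not called) and each bar the list's median; the dotted line is the median of all genes. Lipid-laden and multinucleated macrophages have the lowest median (-2.64) and the X-zone the highest (9.13).

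Markers of other cell types in the gland were mostly lower as well. All 16 medulla genes fell (median -1.53; 15 without sham replicate 1), and their summed level was 376 to 832 CPM in castrated and 1096 to 2165 CPM in sham libraries. Chga, chromogranin A of the secretory granules, was at 258, 141, 115 and 136 CPM in castrated and 716, 413, 678 and 382 CPM in sham libraries (-1.75 ± 0.29, adjusted p = 0.000822). Th, the rate-limiting enzyme of catecholamine synthesis, was at 46.2, 25.3, 20.3 and 19.5 against 72.7, 45.1, 102 and 55.5 CPM (-1.31 ± 0.31), with castrated replicate 1 just above the lowest sham library. Capsule and fibroblast genes fell for 12 of 15, among them Dcn, decorin (-1.72 ± 0.17), Lum, lumican (-1.92 ± 0.16), and the collagen gene Col1a2 (-1.06 ± 0.11). Endothelial genes fell for 10 of 12, most of all Vwf, von Willebrand factor (-2.04 ± 0.27), while Tie1 (-0.86 ± 0.11) and Flt1 (-1.03 ± 0.15) fell by less. Schwann cell genes fell for 8 of 10, led by Sox10 (-1.96 ± 0.42) and Erbb3 (-1.33 ± 0.22), with Mbp (1.09 ± 0.17) and Pmp22 (0.46 ± 0.12) higher. Their summed level was higher, 237 to 283 CPM in castrated and 183 to 216 CPM in sham libraries, opposite to the median (-1.37). Haemoglobin and other red cell genes fell for 5 of 5, with 3 left without castrated replicate 2 or sham replicate 4. Of 7 adipose genes 3 fell, and of 3 neutrophil genes 1, where 23.8% of all genes fell. Because CPM are shares of a library, the rise of abundant cortex genes and these falls are not independent. What part the makeup of the gland has in any single gene was not tested. Under relative log expression scaling the median of all genes was -0.00165 on the log2 scale, and none of the lists in this paragraph changed the sign of its median. That scaling also applies a single factor to each library, and it moved the medulla median only from -1.53 to -1.52. It therefore does not test the makeup of the gland.

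Genes of gonad-type steroid cells, which can appear in the adrenal after removal of the gonads in some mouse strains, did not rise as a group. Of 10 tested 6 fell and 1 rose, against 23.8% and 19.8% of all genes. Gata4, a gonadal transcription factor, was at 1.96, 1.72, 1.93 and 1.499 CPM against 3.83, 2.44, 3.18 and 3.64 CPM (-0.88 ± 0.22; not called with library numbers up to 16 only). Cyp17a1, the 17-hydroxylase of androgen synthesis, was at 0.595 CPM or less in all 8 libraries and did not pass (adjusted p = 0.323). Wt1, a transcription factor of gonads and adrenal capsule, fell (-2.95 ± 0.50), and so did Inhba, an activin subunit (-1.65 ± 0.24). Hsd17b1, which makes oestradiol from oestrone, was the 1 rise, from 2.77, 1.10, 1.44 and 1.48 to 7.05, 4.91, 4.32 and 4.17 CPM (1.5999 ± 0.31). Inha, inhibin alpha, did not pass (-0.49 ± 0.22, adjusted p = 0.0872).

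The castration effect was set beside the change with age in intact cKO males, since the operation at week 4 and collection at 9 weeks span the same interval. In 4 cKO males at 9 weeks against 4 at 4 weeks, 7123 of 17086 genes (41.7%) were called. The 2 comparisons share no library. Of 2466 genes that were at least 2-fold lower after castration and tested in both, 1344 (54.5%) were higher at 9 than at 4 weeks and 31 (1.26%) lower, where 21.2% and 21.6% of all 16429 genes tested in both were. The 1344 are 38.7% of all genes higher with age. Of 789 genes at least 2-fold higher after castration, 397 (50.3%) were lower with age and 19 (2.41%) higher, and the 397 are 11.2% of all genes lower with age. In both directions a gene that moved after castration had more often the opposite than the same change with age. Levels were not compared between the 2 comparisons, since their tables were counted separately.

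Macrophage genes were among these: 18 of the 21 that fell after castration were higher at 9 weeks. Gpnmb rose with age by 6.81 ± 0.86 (adjusted p = 6.94e-06) and Cd68 by 3.48 ± 0.41. Of the 13 genes of lipid-laden macrophages that fell, 10 were higher and 1 lower with age, with Atp6v0d2 at 7.52 ± 0.84 and Mmp12 at 6.28 ± 0.56. All 15 cell cycle genes that rose after castration were lower at 9 than at 4 weeks, as Ccna2 (-2.48 ± 0.36). Of 20 cholesterol genes that rose 15 were lower too, as Hmgcs1 (-1.297 ± 0.17). Unlike the overlaps above, list counts here and below take members called at any fold. Of all 3363 genes called higher after castration, 1745 were lower and 72 higher with age. Cited1 (5.16 ± 0.75), Acan (2.03 ± 0.75) and Aldh1a7 (2.68 ± 0.80), among the largest falls after castration, rose with age, and Oxtr (-3.50 ± 0.61), Nxph1 (-2.76 ± 0.66) and Xrra1 (-2.91 ± 0.86), among the largest rises, fell with age. Nr5a1 (-0.75 ± 0.28) and Nr0b1 (-1.72 ± 0.50) also fell with age. Some genes moved the same way in both. Drd4 was lower both with age (-1.21 ± 0.46) and after castration. Cdh13 (1.14 ± 0.27) and C3, a complement component (2.06 ± 0.50 with age, 3.22 ± 0.38 after castration), rose in both, and the 5 red cell genes fell in both. Akr1d1 and Akr1c18 did not pass the test of age (adjusted p = 0.503 and 0.989).

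Beside the genotype effect, the pattern was different. In males at 9 weeks, 4 cKO against 4 control glands, 4110 of 17086 genes (24.1%) were called. The same 4 cKO libraries at 9 weeks enter the age and the genotype comparison. Of the 2466 genes lower after castration 466 (18.9%) were higher in cKO than control and 664 (26.9%) lower, against 10.7% and 13.1% of all genes. Of the 789 genes higher after castration 30 (3.80%) were higher and 102 (12.9%) lower in cKO. The 466 and 664 genes are 26.6% and 30.9% of all genes higher and lower in cKO. The 2 directions held different groups. Macrophage genes that fell after castration were higher in cKO for 17 of 21, the opposite direction: Gpnmb was higher in cKO by 7.05 ± 0.87 (adjusted p = 3.17e-06), Lgals3 by 4.64 ± 0.54 and Cd68 by 3.15 ± 0.40. Outside that list Mmp12 (5.13 ± 0.52), Cd5l (4.95 ± 1.0002) and Trim29 (4.64 ± 0.86), which also fell after castration, were higher in cKO too. Medulla genes were lower in cKO for all 16, the same direction as after castration, as for Chga (-2.54 ± 0.23) and Th (-2.89 ± 0.41). Of the 14 Wnt genes that fell after castration 6 were lower and 0 higher in cKO. Axin2 did not pass in this comparison (0.25 ± 0.16, adjusted p = 0.292). Cholesterol genes that rose after castration were lower in cKO for 11 of 20, and none of the 15 cell cycle genes was called. Of all 3363 genes called higher after castration at any fold, 418 were lower and 156 higher in cKO. Among the largest rises after castration, Mgat4c (-2.62 ± 0.43), Oxtr (-1.88 ± 0.61) and Ajap1 (-1.66 ± 0.53, with 6.003 ± 0.20 after castration) were lower in cKO than in control glands.

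**Figure D4:**
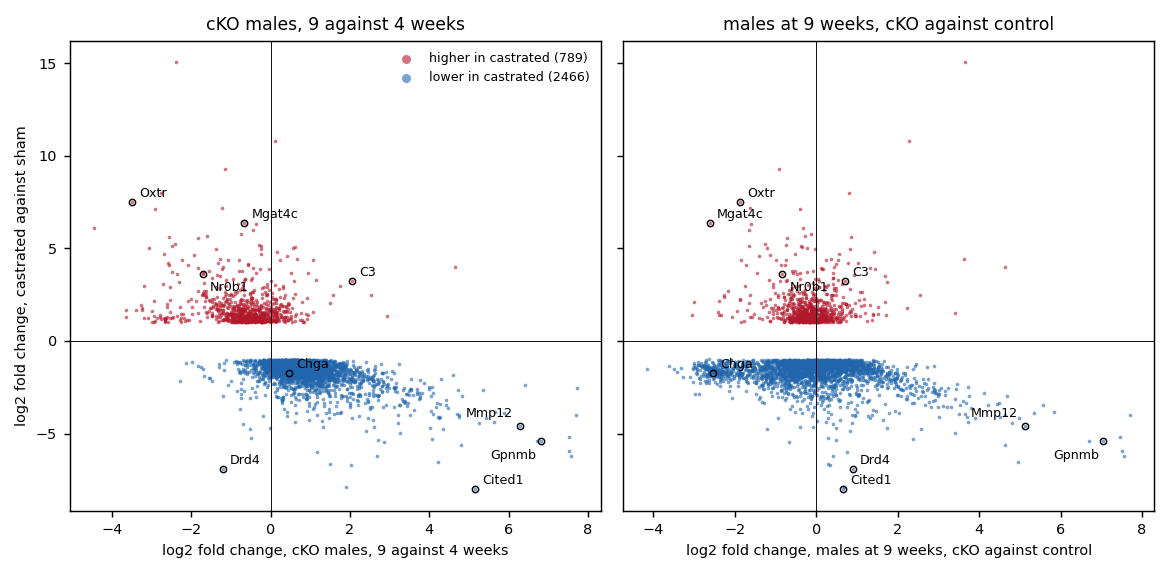
Each point is a gene called with at least a 2-fold castration effect and tested in both tables, by its log2 fold change after castration (y axis) and in intact males (x axis: left, cKO at 9 against 4 weeks; right, cKO against control at 9 weeks), with red for 789 genes higher and blue for 2466 lower in castrated glands. Gpnmb and Mmp12 lie at the lower right of both panels, and Chga at the left of the right panel.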

How the data were processed

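Whole adrenal glands were profiled by RNA sequencing. The authors deposited raw read counts per gene, 1 table for the surgery libraries and 1 for intact males; the submitters' processing notes name cutadapt 1.16, STAR 2.7.6a, featureCounts, RSEM 1.6.3 and DESeq2 1.30.1 without giving their roles, and the mouse genome GRCm38. The library kit was directional, per the labels' protocols, but no source states the strand setting of the counting, so overlapping genes are reported as uncertain. Groups were taken from the sample titles. Gene positions are those of GENCODE M21 (GRCm38) matched by identifier.

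The castration fit held the 8 surgery libraries; the age and genotype contrasts came from 1 fit over all 24 male libraries of the other table. Counts were filtered (edgeR's filterByExpr, minimum count 10), scaled by TMM and tested with edgeR 4.0.16's quasi-likelihood test in R 4.3.3, with Benjamini-Hochberg adjustment over all genes and a threshold of 0.05. Log2 fold changes are given ± SE, taken as the fold change over the square root of F. Intervals on ratios cover counting error only. The gene lists, 32 in all, and the comparison itself were chosen with earlier results of these data known. Named genes were the 12 largest called rises and the 12 largest falls (average log2 CPM of at least 1), up to 5 called genes per list by adjusted p, a fixed set, and 5 per direction of the age and genotype overlaps; others are marked as chosen after their values were seen. Some members of the lists are counted but not reported here by name. Alternatives were DESeq2 1.42.0, relative log expression scaling, no filter, a filter of 5 CPM in 4 libraries, each library left out, the reporter allele as covariate, library numbers up to 16 only, and the most abundant identifiers (over 2% of counts) left out.

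Tested on simulated counts for this comparison (16712 genes, 4 against 4 libraries), the fit recovered 73 of 100 genes changed 2-fold and 98 of 100 changed 4-fold, with 7 false calls among 178. Only these genes were changed, with rises and falls in equal number. In the real comparison 43.6% of genes were called, and 2-fold falls outnumbered 2-fold rises. The simulation therefore does not test the scaling or the false calls under such a shift.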

Additional observations from a re-analysis of the deposited data

Results flagged for a closer look

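Within a group of 4 libraries, 10 of 324 checked groups of values held 1 library whose gap to the nearest of the others exceeded Dixon's 95% critical value, 3.09% where chance gives about 1 in 20; 4 of them came from sham replicate 1. That library had mitochondrial genes at 9.87% of counts (2.41% to 3.11% in the other sham libraries) and the abundant identifier without a symbol at 6.01% (0.106% to 0.349%). It also had the highest sham level of Sult2b1, 4.999 CPM (others 3.78 to 3.88), and the lowest of Rarres1, 4.53 CPM (7.31 to 7.66). Sham replicate 2 was lowest for Prlr, 73.0 CPM (101 to 106). Castrated replicate 1 was lowest for Akr1b7, 236 CPM (331 to 344), Cd4, 1.66 CPM (3.19 to 3.41), and Csf1r, 46.0 CPM (59.2 to 61.4), and highest for the clock gene Per2, 136 CPM (39.9 to 49.7). Castrated replicate 4 had the identifier without a symbol at 0.968% of counts, against 0.0928% to 0.123% in the other castrated libraries.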

How the results depend on the processing

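Of 129 alternative values for the 15 counts over all genes and overlaps, 122 stayed within 1.5 times the reported value. Under a filter of 5 CPM in 4 libraries, which tests 11588 genes, 442 genes were at least 2-fold higher and 1301 lower. With no minimum fold, which admits more genes by construction, the overlaps of genes higher after castration were 72 higher and 1745 lower with age and 156 higher and 418 lower in cKO, and 88 genes were lower in both castration and age. Leaving out 1 library gave 6189 to 8136 called genes, 2647 to 3854 higher, 3535 to 4282 lower, 824 to 942 at least 2-fold higher and 2429 to 2779 at least 2-fold lower, and 5762 to 7332 for age and 2947 to 4403 for genotype. DESeq2 called 8057 genes (39 without an adjusted p). No paired analysis was possible for castration because the sham labels share a single number. With the replicate number as a block, 6947 genes were called for age and 3869 for genotype. Correlations of same-numbered libraries ran from -0.18 to 0.153. These few values do not settle whether a shared number stands for a pairing.

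Of 159 named genes 137 kept direction and call under all alternatives run. The sign turned for 6, none of them called. Leaving out 1 library gave log2 fold changes of -0.40 to 0.074 for Adgre1, -0.40 to 0.078 for Cd36, -0.0063 to 0.16 for Cdkn1a, -0.28 to 0.10 for Per1, -0.64 to 0.39 for Per2 and -0.045 to 0.33 for Plin2. Cd36 was at 0.11 and Per1 at 0.27 with library numbers up to 16, Cdkn1a at -0.021 under the filter of 5 CPM, and Per2 at 0.018 with no filter and 0.18 with the reporter. The cause was not tested. Rnf43 was called lower without sham replicate 1. Called members of the CDK inhibitor list that fell went from 5 to 3 without castrated replicate 3 or 4 or sham replicate 2. Schwann cell genes that fell went from 8 to 1 under the filter of 5 CPM, where fewer members are tested, and endothelial genes from 10 to 6 and gonad-type genes from 6 to 3 with library numbers up to 16. Library totals of 25145519 to 42411447 counts limit precision for genes near 1 CPM.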

Other observations

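Circadian clock genes moved in both directions. Of 13 listed genes 6 rose and 2 fell, where 19.8% and 23.8% of all genes did (median log2 fold change 0.57, against -0.01 over all genes). Arntl, the core activator also called Bmal1, was at 9.56, 25.1, 14.6 and 13.6 CPM in castrated and 27.5, 44.8, 56.2 and 32.9 CPM in sham libraries (-1.36 ± 0.30, adjusted p = 0.00404), and Npas2, its partner, fell by more (-2.85 ± 0.39). Dbp, a clock output factor that peaks when Arntl is low, was at 564, 448, 563 and 709.5 against 157, 149.7, 75.9 and 188 CPM (2.002 ± 0.25). Nr1d1 (REV-ERB alpha, 1.37 ± 0.20), Nr1d2 (1.08 ± 0.13), Tef (1.32 ± 0.13), Per3 (0.95 ± 0.20) and Cry2 (1.34 ± 0.20) rose as well. Per1 (-0.14 ± 0.22) and Per2 (-0.03 ± 0.44) did not pass. No source used here states the hour of collection.

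Retinoid genes fell more often than they rose. Aldh1a1, a retinaldehyde dehydrogenase, was at 222, 872, 1037 and 545 CPM in sham and 25.5, 33.4, 77.6 and 23.4 CPM in castrated libraries (-4.06 ± 0.54, adjusted p = 0.000198), and its close paralog Aldh1a7, whose reads may partly be shared with it, fell with it. In all, 7 of 12 retinoid genes fell, among them Cyp26b1, which breaks retinoic acid down (-2.64 ± 0.38), and 1, the reductase gene Dhrs3, rose (0.68 ± 0.13). Adh1, which can act one step earlier on retinol, rose. Of 14 glutathione genes 3 rose, led by Gstp1 (0.82 ± 0.13), and 4 fell, led by Gstm2 (-1.302 ± 0.19), shares close to those over all genes (19.8% and 23.8%). Glutathione transferases have near-identical copies, so their split is uncertain. Of 13 immediate early genes 4 fell, against 23.8% of all genes; Atf3, a stress-induced factor, had the deepest fall, from 26.8, 42.9, 38.96 and 31.4 to 2.25, 2.53, 1.90 and 2.54 CPM (-3.92 ± 0.19), followed by Egr2 (-2.83 ± 0.24). With the reporter as a covariate 8 of the 13 were lower. Of 16 interferon-stimulated genes 3 fell, a smaller share than over all genes.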
